A study of Mus musculus with 24 samples.

Results

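The ventrobasal complex (VB) and the dorsal lateral geniculate nucleus (dLGN) were compared at postnatal day 4 (P4) in mice that had lost both eyes before birth. The comparison rests on the 6 P4 arrays labelled as embryonically bilateral enucleated (embBE), 3 of VB and 3 of dLGN, of 24 arrays in all. They form 3 pairs that share a label (24_4, 36_2 and 40_3). Beside them stand 6 P4 arrays of control mice that kept their eyes (3 VB and 3 dLGN, labelled 24_2, 36_3 and 40_1) and 7 P0 arrays of embBE mice (3 VB and 4 dLGN). Every mouse was wild type on a C57BL/6 background, and no transgene or drug was used. By the design text each sample pooled tissue of pups of 1 litter and 1 condition, microdissected from vibratome sections, so a value is a mean over all cells of the dissected pieces. Each array was high in 1 of 2 sex-linked genes and low in the other, either Xist (10.02 or more, against at most 7.66) or Eif2s3y (7.80 or more, against at most 3.86), so no array read as a mixture of sexes. The RNA went through 2 rounds of amplification before it was hybridized to an Affymetrix mouse array. The deposited values are log2 signals after RMA, a method that corrects background, sets the arrays to a common distribution and sums the probes of a probe set. Differences are log2 VB minus log2 dLGN throughout, so a difference of 1 is a signal higher in VB by a factor of 2, and every level is a log2 signal of 1 probe set, which cannot be set against that of another gene.

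The VB relays touch from the whiskers and the body to somatosensory cortex, and the dLGN relays vision from the retina to visual cortex. Both are built of glutamatergic relay neurons that share a core of thalamic transcription factors. Retinal axons reach the dLGN before birth in mice, while the VB takes its ascending input from the brainstem, so removing the eyes takes away the principal sensory input of one nucleus and leaves that of the other in place. The comparison asks which differences between the nuclei are present when no retinal axon has been there.

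Array measures differed between the nuclei and are given here before the results they touch. The 3′ probe set of the actin control stood above its 5′ probe set by 1.98 to 2.05 on the embBE VB arrays and by 3.33 to 3.94 on the embBE dLGN arrays, without overlap. The same gap for Gapdh was 3.09 to 3.49 in VB and 4.38 to 4.65 in dLGN. A wider gap means that less signal was left towards the 5′ end of these transcripts. The signals of all probe sets had a standard deviation of 2.38 to 2.42 on the VB arrays and of 2.24 to 2.33 on the dLGN arrays. The median difference was -0.21 in the dimmest tertile of the genes, -0.05 in the middle one and 0.16 in the brightest. Each difference below was measured across this gap, and counts with the gap as a covariate are given after the list results. A P4 control pair came close to matching on it: the actin gap of pair 24_2 was 1.95 in VB and 2.21 in dLGN, and its values are used below as a separate reading. Its Gapdh gap was 3.03 in VB and 3.63 in dLGN, so this pair also had the wider gap in dLGN.

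**Figure D1:**
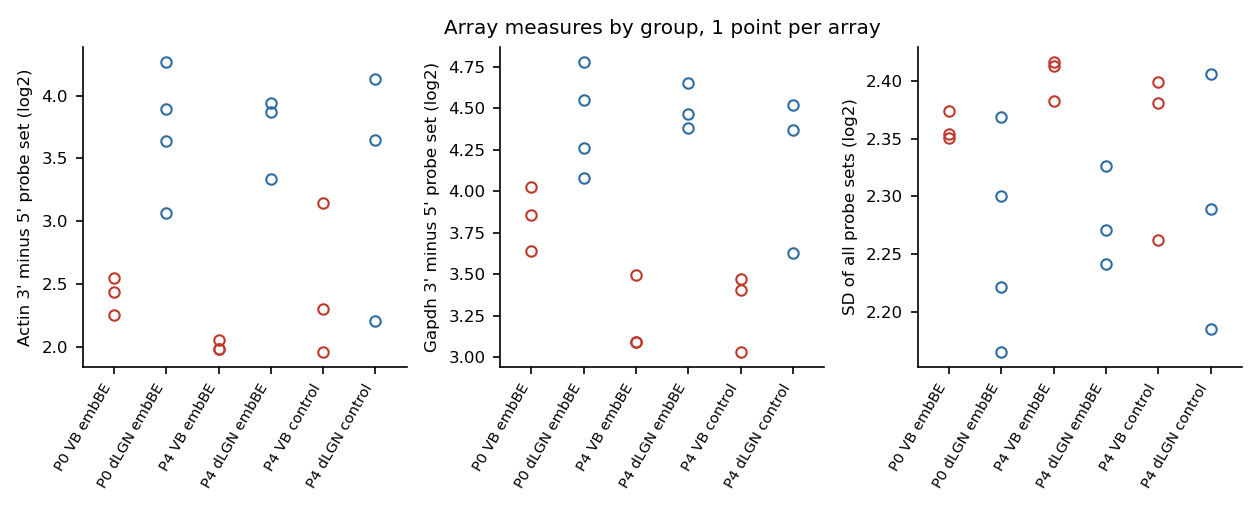
The 3′ minus 5′ gap of the actin and Gapdh control probe sets and the standard deviation of all probe sets (y axes, log2), 1 point for each array, VB in red and dLGN in blue. At P4 the embBE VB arrays lie between 1.98 and 2.05 for actin and the embBE dLGN arrays between 3.33 and 3.94.

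The pair labelled 36_2 stood apart in both nuclei. Its arrays were the 2 P4 arrays high in Eif2s3y, while the other 10 were high in Xist, so this pair also differed from the rest in sex. Its dLGN array had the highest level among the dLGN arrays of the collagen gene Col1a2 (9.20, against 7.85 and 7.28 in the other dLGN arrays), of the matrix gene Dcn (8.19, against 6.16 and 5.54) and of the astrocyte filament gene Gfap (7.61, against 6.52 and 6.59). Its VB array had the highest level of the synapse organizer Cbln1 (12.14, against 9.75 and 9.70 in the other VB arrays) and of the activin subunit gene Inhba (10.10, against 6.85 and 7.09). The part of sex in these levels was not tested, and the number of calls without this pair is given below.

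In dissected tissue fewer cells of a type and less RNA per cell cannot be told apart, and this holds for every difference below. Between the enucleated nuclei, 765 of 18194 genes passed the adjusted threshold, a Benjamini-Hochberg adjusted p under 0.05 in limma and a fold of at least 1.5. This is 4.2% of the genes tested. Of them, 524 (2.88%) were higher in VB and 241 (1.32%) were lower, with a median size of 0.97. At a looser threshold, a fold of at least 1.5 and an unadjusted p under 0.05, 2281 genes (12.5%) passed, 1798 higher (9.88%) and 483 lower (2.65%). With no bound on the fold, 791 genes (4.35%) had an adjusted p under 0.05. Among the 2281 genes the share of higher ones was 78.8%. It was 90.2% when each array was centred on its median and 69.7% after cyclic loess, so the balance of directions depended on the scaling; for the adjusted calls it was 68.5%, 75.2% and 68.6%. All 765 called genes had the same sign in the 3 pairs, where 68.9% of all genes did. In 747 of them the VB arrays did not overlap the dLGN arrays, where 55.8% of all genes did not. Other probe sets on the array existed for 464 of the 765. In 253 of these 464 genes all of them had the sign of the probe set that was read.

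The p-values rest on the spread of the VB minus dLGN difference between pairs of pooled samples of the same condition. That spread was estimated over the embBE and control pairs together, with 4 residual degrees of freedom. It was then drawn by limma towards that of other genes. The count of calls moved with each pair. Without pair 24_4, 36_2 or 40_3 the calls numbered 247, 166 and 115. Of the 765 genes 687 stayed past 1.5-fold in all 3 reduced fits and 106 were called in all 3; their signs could not change, since they were the same in each pair. Leaving out a control pair, which enters through the estimate of the spread, gave 482 calls without 24_2, 952 without 36_3 and 2420 without 40_1. With the actin gap of each array added to the fit as a covariate, 70 genes were called. Of the 765, 658 then kept their sign (430 of 524 higher and 228 of 241 lower) and 41 kept their call.

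The genes most enriched in the enucleated VB encode enzymes and modulators of intracellular signals, adhesion proteins and channel subunits. Pde1c, a phosphodiesterase driven by calcium and calmodulin, had the largest difference. Its level was 10.51, 10.70 and 10.59 in VB, against 7.12, 7.22 and 6.85 in dLGN (pairs 24_4, 36_2 and 40_3). The VB arrays lay far above the dLGN arrays, by 3.54 ± 0.24 (SE), a fold of 11.6 (adjusted p = 0.00041). Its 5 other probe sets gave -0.15 to 1.52. Ppp1r17, an inhibitor of protein phosphatases, was at 8.99, 9.51 and 9.86 in VB, against 5.80, 6.47 and 5.97 in dLGN, a fold of 10.4 (3.37 ± 0.23, adjusted p = 0.00041). Ppm1j, a protein phosphatase, was at 10.19, 10.35 and 9.74 in VB, against 7.17, 7.01 and 6.91 in dLGN. Its fold was 8.36 (3.06 ± 0.18, adjusted p = 0.000216). Elmod1, a regulator of small GTPases, was higher by 3.19 ± 0.31.

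Plxna2, a receptor of semaphorins that steer growing axons, was at 10.27, 10.64 and 10.17 in VB, against 7.54, 7.88 and 7.75 in dLGN. The difference of 2.63 ± 0.13, a fold of 6.21, had the smallest p of the leading genes (adjusted p = 0.000193), and its 3 other probe sets agreed in sign (1.14 to 3.10). The growth factor gene Igf1 was at 10.82, 11.19 and 10.88 in VB, against 8.11, 8.65 and 8.36 in dLGN, a fold of 6.03 (2.59 ± 0.18, adjusted p = 0.00041). Its 3 other probe sets gave 1.07 to 2.82. Kcnab1, an auxiliary subunit of voltage-gated potassium channels, was higher by 2.87 ± 0.27, and Vsnl1, a neuronal calcium sensor, by 2.51 ± 0.24. Cdh13, a cadherin held in the membrane by a lipid anchor, was higher by 2.46 ± 0.23, and its 3 other probe sets gave -0.19 to 2.13. Crabp2, which carries retinoic acid inside cells, was at 8.93, 8.73 and 8.29 in VB, against 5.96, 7.0 and 5.59 in dLGN. Its difference of 2.46 ± 0.27 was a fold of 5.52 (adjusted p = 0.00258). The study used Crabp2 as a marker of the auditory thalamus, and whether auditory tissue had a part in this difference was not tested. The other genes among the 15 largest were Pdzrn3 (2.53), Vstm2a (2.46), Fut8 (2.44), Plekhd1 (2.32) and Kcne4 (2.30). Pdzrn3 and Fut8 had other probe sets at -0.12 for the first and from -0.30 to 0.03 for the second.

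On the dLGN side the leading genes included secreted regulators, a transmitter enzyme and transcription factors. Fgd5, an activator of the GTPase Cdc42, was at 7.49, 7.08 and 7.29 in VB, against 9.53, 9.62 and 9.78 in dLGN. It was 5.11-fold higher in dLGN (-2.35 ± 0.19, adjusted p = 0.000729). Dkk4, a secreted inhibitor of Wnt signals, was at 4.93, 5.02 and 4.78 in VB, against 6.99, 7.24 and 7.55 in dLGN, a difference of -2.35 ± 0.19 (adjusted p = 0.000799). Hdc, the enzyme that makes histamine, was at 8.4, 7.39 and 8.73 in VB, against 10.35, 10.48 and 10.30 in dLGN. The VB array of pair 36_2 was the lowest, and the groups were well apart (-2.20 ± 0.26, adjusted p = 0.00325). Reln, the secreted matrix protein that guides neuronal position, was at 7.21, 7.51 and 6.91 in VB, against 8.87, 9.78 and 9.17 in dLGN, 4.18-fold higher in dLGN (-2.07 ± 0.19, adjusted p = 0.00129). The other probe set of Reln gave -0.18. Lower in VB as well was the adaptor of the Reln signal inside cells, Dab1, named after its value was seen (-1.12 ± 0.16, adjusted p = 0.00747). Hs6st2, an enzyme that sulfates heparan chains, was lower by 2.05 ± 0.27 and its call was lost without pair 40_3. Fam163a (-2.20), Scarf2 (-2.14), Sorcs1 (-2.13), Ppp1r16b (-2.07), Cd24a (-1.88), Necab1 (-1.84) and Ttc28 (-1.83) were among the 15 as well. Necab1 lost its call without any 1 pair.

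**Figure D2:**
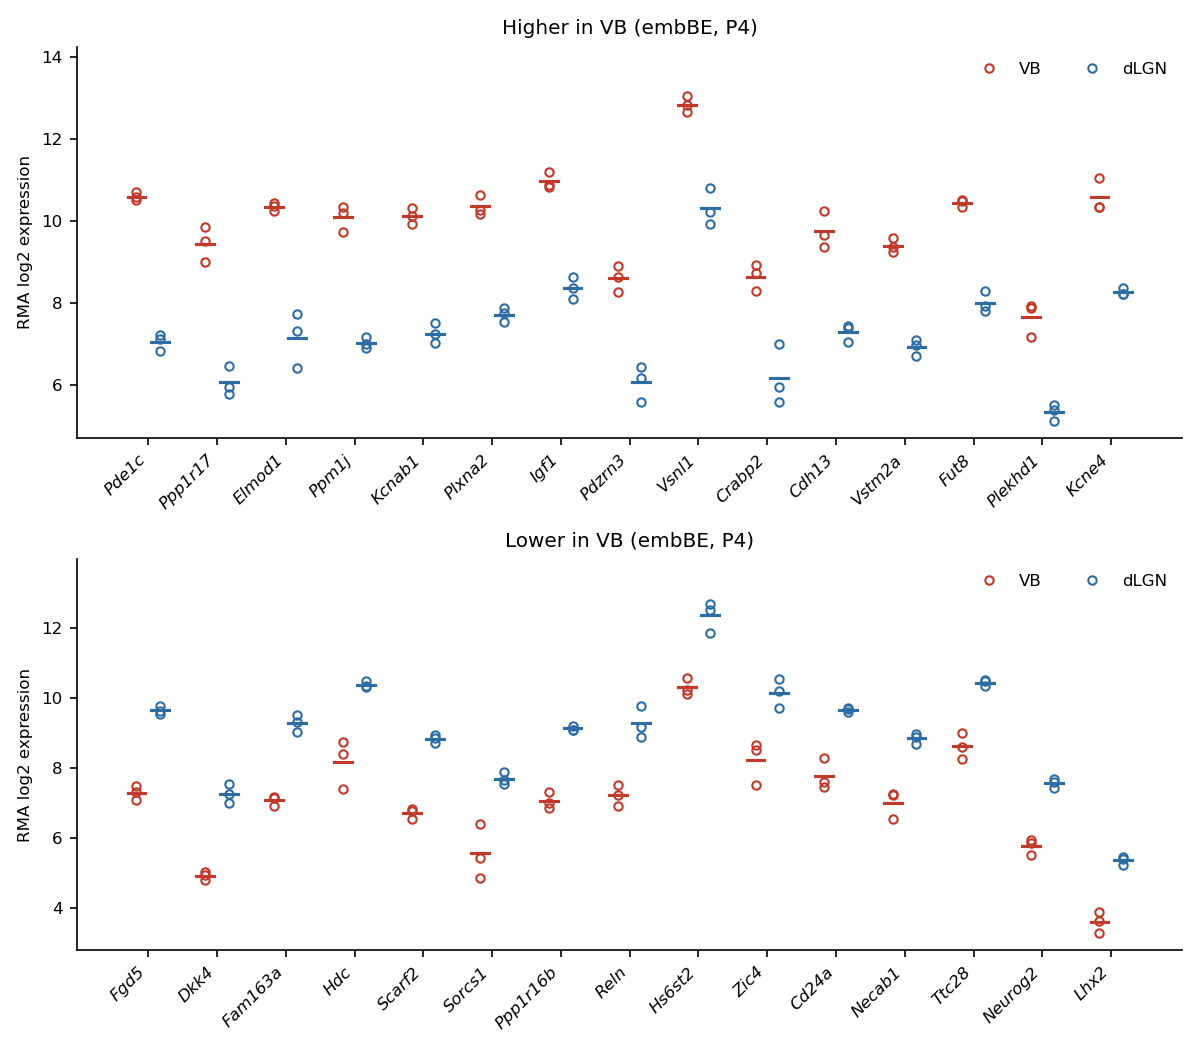
RMA log2 level (y axis) of the 15 genes most above and the 15 most below in VB at P4 in embBE mice, VB in red left of dLGN in blue, 1 point for each array and a bar for the mean. In the 30 genes the 3 VB points do not overlap the 3 dLGN points.

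All 30 leading genes kept their sign with the actin gap as a covariate, and 14 kept their call. Among those 14 were Pde1c (2.10), Ppp1r17 (2.86), Ppm1j (2.31), Plxna2 (2.89), Igf1 (1.81) and Crabp2 (3.79) on the VB side, and Fam163a (-2.04), Sorcs1 (-2.96), Reln (-2.57), Hs6st2 (-3.62) and Zic4 (-2.58) on the dLGN side. In control pair 24_2, whose actin gaps were close, the 30 genes had the same sign and each was past 1.5-fold along it.

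The counts of each list below stand against 2.88% of all genes higher in VB and 1.32% lower, with 524 of all 765 calls on the VB side. Transcription factors of relay neurons split between the nuclei. Of 23 measured, 3 were higher in VB and 4 were lower, with a median difference of -0.20, against -0.09 over all genes. Rorb, a nuclear receptor of sensory thalamus and cortex, was at 9.41, 9.46 and 8.80 in VB, against 7.05, 7.79 and 7.66 in dLGN, without overlap. It was 3.30-fold higher in VB (1.72 ± 0.23, adjusted p = 0.00592), its 2 other probe sets gave 0.80 and 2.21, and its call was lost without pair 36_2. The orphan nuclear receptor gene Nr2f2 was higher by 1.04 ± 0.18 (adjusted p = 0.0157) and the ETS factor gene Etv5, named after its value was seen, by 0.99 ± 0.21 (adjusted p = 0.0392). Other probe sets of Nr2f2 gave -0.19 to 1.25. The zinc finger gene Zic4 was at 8.66, 7.52 and 8.51 in VB, against 10.54, 9.71 and 10.18 in dLGN (-1.92 ± 0.17, adjusted p = 0.00112). The LIM homeobox genes Lhx2 (-1.76 ± 0.15, adjusted p = 0.00103) and Lhx9 (-1.05 ± 0.13, adjusted p = 0.00376) were lower in VB, as was the POU factor gene Pou2f2 (-1.41 ± 0.32, adjusted p = 0.0449). Lhx2 was dim, at 3.26 to 3.88 in VB and 5.22 to 5.44 in dLGN. Neurog2, a proneural factor of the dorsal thalamus outside this list, was lower by 1.79 ± 0.17.

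Of the genes set as markers of relay neurons, Rorb, Lhx2 and Lhx9 were called, as given above. No difference in the others, Tcf7l2, Slc17a6, Lef1, Rora and Gbx2, passed the test. Tcf7l2, Lef1 and Rora were read as markers, outside the rule for named genes. Tcf7l2 was at 12.21 to 12.69 in VB and 12.13 to 12.49 in dLGN (0.08 ± 0.17, adjusted p = 0.725). Slc17a6, the vesicular glutamate transporter of relay neurons, was at 13.12, 12.87 and 13.32 in VB, against 12.93, 11.85 and 12.28 in dLGN (0.75 ± 0.31, adjusted p = 0.133). Lef1 (-0.20 ± 0.18) and Rora (-0.46 ± 0.16) overlapped between the nuclei. Gbx2 was at 6.33, 6.65 and 6.51 in VB, against 5.40, 6.67 and 4.57 in dLGN, where the array of pair 36_2 reached the VB level (0.95 ± 0.34, adjusted p = 0.11). Cck, a neuropeptide gene, differed by 0.54 ± 0.20 (adjusted p = 0.112).

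Of 38 homeobox and regional patterning factors none was higher in VB and 4 were lower, 10.5% called against 4.2% of all genes, with a median of -0.29. The 4 were Tal1 (-1.70 ± 0.17, adjusted p = 0.00182), Meis2 (-1.49 ± 0.22, adjusted p = 0.00825), Lhx5 (-0.84 ± 0.15, adjusted p = 0.0199) and Irx3 (-0.76 ± 0.18). Lhx5 was dim, at 3.86 to 4.13 in VB and 4.64 to 5.09 in dLGN. The median of the list depended on the scaling. It was -0.10 after cyclic loess and 0.03 with the actin gap as a covariate, against -0.03 and 0.03 over all genes. Tal1 and Lhx5 mark GABAergic neurons that lie around the relay nuclei, and Meis2 is also expressed there.

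**Figure D3:**
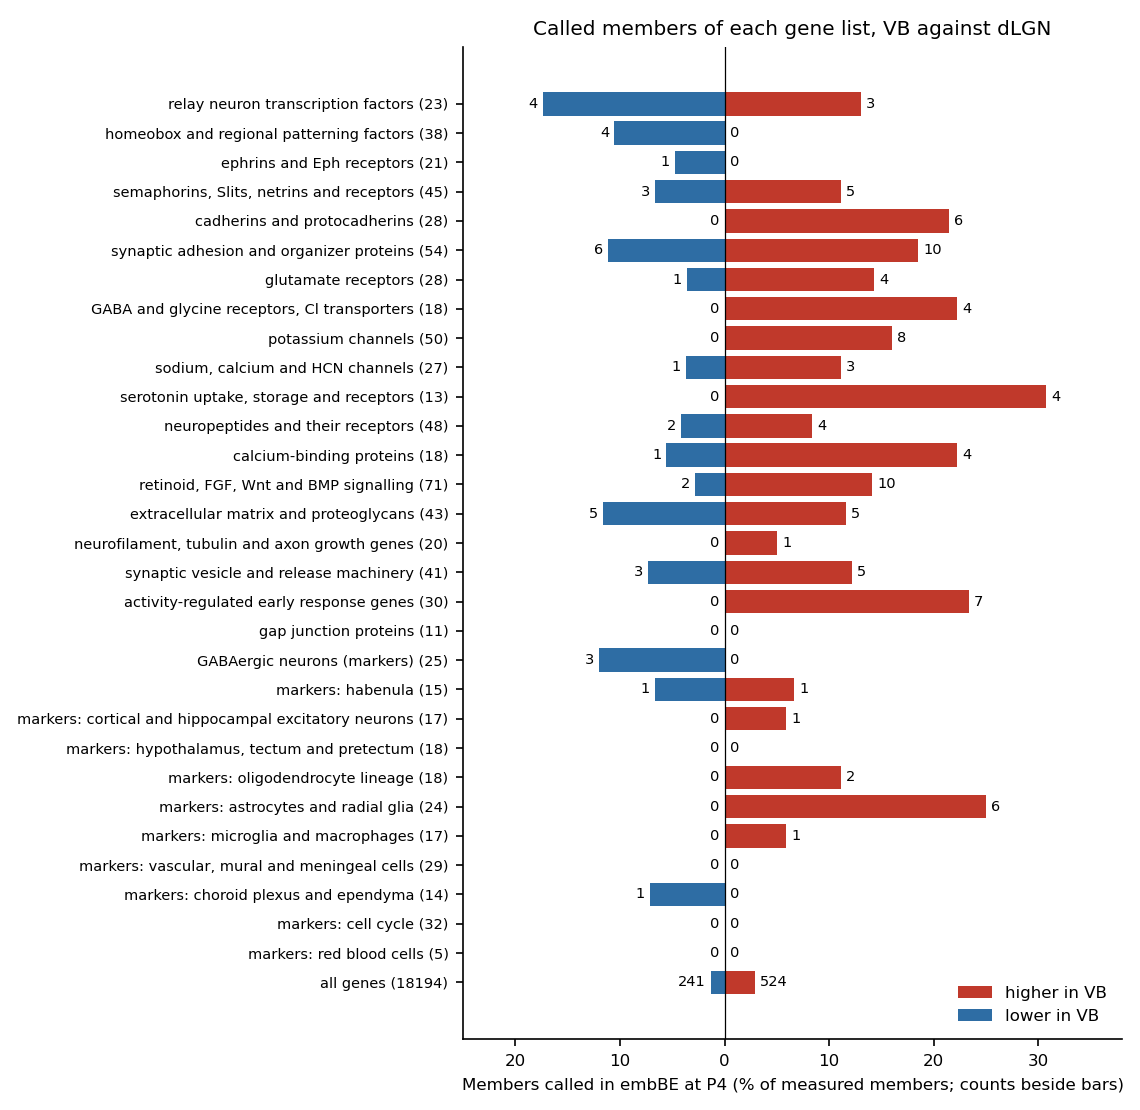
Members of each gene list called at the adjusted threshold in embBE mice at P4, as a percentage of measured members (x axis, from 0 in both directions), higher in VB to the right in red and lower to the left in blue, with counts beside the bars and the number measured in parentheses. All genes stand at the bottom with 524 higher and 241 lower.

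Adhesion genes had a larger share of called members than the 4.2% of all genes. Of 28 cadherins and protocadherins 6 were higher in VB and none was lower, with a median of 0.21. After Cdh13, Pcdh17 had the largest difference. It was at 9.99, 10.03 and 9.92 in VB, against 7.98, 8.62 and 7.62 in dLGN (1.91 ± 0.22, adjusted p = 0.00281). Cdh6 (1.40 ± 0.21), Pcdh11x (1.20 ± 0.15), Cdh22 (1.04 ± 0.18) and Pcdh18 (0.91 ± 0.16) followed. The 2 other probe sets of Pcdh18 gave -0.34 and 1.14. Of 54 synaptic adhesion and organizer proteins 10 were higher and 6 were lower. Lrrtm4, a postsynaptic organizer of glutamatergic synapses, was at 7.97, 8.18 and 8.37 in VB, against 6.20, 6.87 and 6.31 in dLGN, 3.28-fold higher (1.71 ± 0.16, adjusted p = 0.00131). Its relative Lrrtm1 went the other way, at 10.67, 10.61 and 10.72 in VB, against 11.47, 11.89 and 11.88 in dLGN (-1.08 ± 0.20, adjusted p = 0.0203). The contactin gene Cntn3 (1.60 ± 0.19) and the latrophilin ligand gene Flrt2 (1.20 ± 0.14) were higher in VB. Cbln1 was called higher (1.49 ± 0.33, adjusted p = 0.0444) and lost the call without any 1 pair, with a difference of 0.86 without pair 36_2.

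Teneurins, transmembrane proteins that match axons with their targets, were on both sides. Tenm2 was at 12.73, 11.95 and 12.85 in VB, against 13.63, 13.65 and 13.84 in dLGN (-1.20 ± 0.17, adjusted p = 0.00674). Tenm3 was at 11.55, 11.38 and 11.03 in VB, against 12.36, 12.21 and 12.16 in dLGN (-0.93 ± 0.14, adjusted p = 0.0102). Tenm4 was also lower (-1.09 ± 0.13), while Tenm1 was higher (0.97). Tenm1, Tenm3, Tenm4 and Lrrtm1 were singled out after their values were seen.

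Among 45 semaphorins, Slits, netrins and their receptors 5 were higher and 3 lower in VB, 17.8% called against 4.2% of all genes. The netrin receptor genes Dcc (1.10 ± 0.17) and Unc5b (0.88 ± 0.13), the ligand genes Sema3e (1.0 ± 0.21) and Ntn4 (0.81 ± 0.15), and Plxna2 were higher, and the repulsive guidance gene Rgma was lower (-1.18 ± 0.21). Other probe sets gave -0.39 to 1.18 for Dcc, -0.01 for Unc5b, 0.11 to 1.09 for Sema3e and -0.13 for Ntn4. Of 21 ephrins and Eph receptors, which set up the map of retinal axons, a single one was called, 4.76% against 4.2% of all genes. Efna2, an ephrin-A ligand, was at 8.86, 8.65 and 9.0 in VB, against 9.63, 9.64 and 9.91 in dLGN (-0.89 ± 0.12, adjusted p = 0.00583). Efna5, named after its value was seen, differed by -0.46 ± 0.15 (adjusted p = 0.0894).

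Of 28 glutamate receptor genes 4 were higher and 1 was lower, 17.9% called against 4.2% of all genes. Their median was -0.25, and 11 of the 28 were above 0. Grin3a, a modulatory NMDA receptor subunit, was at 10.34, 10.71 and 10.52 in VB, against 8.55, 8.60 and 8.0 in dLGN, 4.40-fold higher (2.14 ± 0.17, adjusted p = 0.000804). The auxiliary subunit genes Neto1 (1.07 ± 0.13), Shisa6 (1.17 ± 0.22) and Cacng5 (0.75 ± 0.15) were higher, and the kainate receptor gene Grik3 was lower (-1.23 ± 0.13, adjusted p = 0.00212). Of 18 GABA and glycine receptor and chloride transporter genes 4 were higher and none was lower. The glycine receptor gene Glra3 was at 7.65, 8.64 and 7.97 in VB, against 5.75, 6.98 and 4.74 in dLGN (2.26 ± 0.29, adjusted p = 0.00493). The GABA-A receptor gene Gabra4 was at 10.24, 10.57 and 10.41 in VB, against 8.88, 8.0 and 8.28 in dLGN (2.03 ± 0.36, adjusted p = 0.0188). With the actin gap as a covariate its difference was -0.06. Gabrg1 (1.14 ± 0.20) and Gabra3 (1.08 ± 0.24) were also called, with 0.17 and -0.26 under the covariate, and Gabra3 lost its call without any 1 pair.

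Of 50 potassium channel genes 8 were higher in VB and none was lower, 16% called against 4.2% of all genes, with a median of 0.01. Kcna1, a channel of axons, was at 9.84, 10.16 and 10.14 in VB, against 7.93, 8.53 and 8.38 in dLGN, 3.41-fold higher (1.77 ± 0.16, adjusted p = 0.00125). Kcnn1, activated by calcium, was at 8.21, 8.36 and 8.28 in VB, against 7.14, 7.11 and 7.29 in dLGN (1.10 ± 0.12, adjusted p = 0.0025). Kcnh5 (1.61 ± 0.14) was dim, and Kcnj3 (1.42 ± 0.24) and Kcnk2 (1.03 ± 0.19) lost their calls without any 1 pair. Of 27 sodium, calcium and HCN channel genes Cacna2d3 (1.63 ± 0.26), Scn8a (1.07 ± 0.18) and Cacnb2 (0.74 ± 0.14) were higher, and Cacna1e was lower (-0.73 ± 0.14). Among 41 genes of synaptic vesicles and release 5 were higher and 3 were lower. Syt9, a calcium sensor of release, was higher by 1.21 ± 0.14 (adjusted p = 0.00325), and Rph3a was lower by 0.86 ± 0.17. Snap25, a SNARE protein, was higher by 1.70 ± 0.37 (adjusted p = 0.0389), with a difference of 0.18 in its other probe set and of -0.51 with the actin gap as a covariate.

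Of 13 serotonin genes 4 were higher in VB and none was lower, 30.8% called against 4.2% of all genes, with a median of 0.24. Thalamocortical neurons of mice take up serotonin transiently early in life through the transporter Slc6a4. It was at 10.52, 10.43 and 10.42 in VB, against 9.35, 8.48 and 8.88 in dLGN, without overlap. The fold was 2.93 (1.55 ± 0.26, adjusted p = 0.0147). The call was lost without pair 36_2 or 40_3, and the difference was 0.06 with the actin gap as a covariate. The monoamine oxidase genes Maob (1.20 ± 0.13, adjusted p = 0.00243) and Maoa (0.64 ± 0.12, adjusted p = 0.0224), whose products degrade serotonin, and the receptor gene Htr2c (0.92 ± 0.15, adjusted p = 0.0148) were higher. The Htr2c levels of the nuclei overlapped because both arrays of pair 36_2 were high. The vesicular transporter gene Slc18a2 was at 9.09 to 9.78 in VB and 9.31 to 10.02 in dLGN (-0.22 ± 0.19).

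Of 30 activity-regulated early response genes 7 were higher in the enucleated VB and none was lower, with a median of 0.11. The 4.2% of all genes called is the background of this count. Bdnf, a neurotrophin induced by activity, was at 8.50, 8.30 and 8.13 in VB, against 6.73, 6.99 and 6.89 in dLGN, 2.71-fold higher (1.44 ± 0.15, adjusted p = 0.00192). Fos, an immediate early transcription factor, was at 8.83, 8.87 and 8.72 in VB, against 7.75, 7.55 and 7.70 in dLGN, 2.20-fold higher (1.14 ± 0.15, adjusted p = 0.00578). Fosl2 (1.56 ± 0.14), Egr2 (1.17 ± 0.25), Npas4 (0.88 ± 0.16) and Ier2 (0.67 ± 0.15) were called too, Egr2 losing its call without pair 24_4 or 40_3 and Ier2 without any 1 pair. Fos and Npas4 lost their calls without pair 36_2 or 40_3. Arc and Egr1, other members of the list chosen here after their values were seen, differed by -0.15 and 0.46 without a call.

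Among 71 genes of retinoid, FGF, Wnt and BMP signals 10 were higher in VB and 2 were lower, with a median of 0.00. Besides Crabp2, the retinoic acid degrading enzyme Cyp26a1 was at 8.20, 8.28 and 7.45 in VB, against 6.46, 6.54 and 6.23 in dLGN (1.56 ± 0.21, adjusted p = 0.00539), and the synthesizing enzyme Aldh1a1 was higher by 1.20 ± 0.19 with both arrays of pair 36_2 high. Dusp6, a phosphatase that is induced by FGF and ERK signals and damps them, was at 9.95, 9.19 and 9.34 in VB, against 7.61, 7.52 and 7.55 in dLGN, 3.82-fold higher (1.93 ± 0.18, adjusted p = 0.00127). Fgf12 (1.19 ± 0.17) and the Wnt enhancer gene Rspo2 (1.16 ± 0.20) were higher. Of 43 matrix and proteoglycan genes 5 were higher and 5 lower. Spock1, a secreted proteoglycan, was at 10.68, 10.44 and 10.21 in VB, against 8.37, 8.52 and 8.31 in dLGN, 4.11-fold higher (2.04 ± 0.16, adjusted p = 0.000729), with its other probe set also at 2.04. Vcan (1.64 ± 0.32) and Sulf1 (1.97 ± 0.40) were higher, and Gpc5, a glypican, was lower (-1.30 ± 0.14, adjusted p = 0.00246).

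Of 18 calcium-binding proteins 4 were higher and 1 was lower in VB. S100b was higher by 1.55 ± 0.20 and Calb1 by 1.04 ± 0.24. Calb1 was at 9.31, 9.44 and 8.54 in VB, against 7.80, 9.23 and 7.14 in dLGN, so that the dLGN array of pair 36_2 reached the VB level. Of 48 neuropeptides and receptors 4 were higher, among them the precursor gene Gal (0.84 ± 0.16) and the receptor gene Sstr4 (1.15 ± 0.15), and 2 were lower, Tacr3 (-0.89 ± 0.17) and Grpr (-0.61 ± 0.14). Of 20 neurofilament, tubulin and axon growth genes Nefh alone was called (0.84 ± 0.16). None of 11 gap junction genes was called. Gjd2, the neuronal connexin, was at 10.46, 10.35 and 10.29 in VB, against 10.27, 9.85 and 9.95 in dLGN (0.35 ± 0.18, adjusted p = 0.204).

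Markers of other cells were read because the dissected pieces can hold neighbouring tissue. Of 25 markers of GABAergic neurons of the reticular nucleus, zona incerta and ventral geniculate 3 were lower in VB (Tal1, Meis2 and Lhx5) and none was higher, with a median of -0.29. Their summed linear signal was 1668 to 2127 in VB and 2028 to 2602 in dLGN. In controls it was 1783 to 1801 in VB and 2068 to 3283 in dLGN, without overlap. Gad1, which makes GABA, was at 5.69, 5.98 and 7.39 in VB, against 8.16, 8.33 and 7.63 in dLGN, a difference of -1.69 ± 0.62 that did not pass (adjusted p = 0.115). Of 24 markers of astrocytes and radial glia 6 were higher and none was lower, with a summed signal of 55117 to 56185 in VB and 39780 to 44677 in dLGN. In controls the sums overlapped, at 43474 to 58295 in VB and 41570 to 51583 in dLGN. The median difference of this list was 0.24 in embBE mice and 0.01 in controls. The 6 called in embBE mice included Acsbg1 (1.68 ± 0.28), Hes1 (0.92 ± 0.20), Aldoc (0.88 ± 0.20) and the glutamate transporter gene Slc1a2 (0.79 ± 0.16). Of the 24, 16 were above 0, and at the looser threshold 7 were higher and 2 were lower. Gfap went the other way, at 6.01, 5.90 and 6.16 in VB, against 6.52, 7.61 and 6.59 in dLGN, without overlap. Of 18 oligodendrocyte lineage markers 2 were higher, the myelin gene Mbp (1.03 ± 0.15) and Gpr17 (0.86 ± 0.16). Both lost their calls without any 1 pair. Of the 18, 10 were above 0, with a median of 0.20. The summed signal of this list was 17686 to 18549 in VB and 12867 to 15904 in dLGN. The control sums overlapped here too, at 13953 to 19278 in VB and 11708 to 16741 in dLGN. The microglial gene P2ry12 was higher (1.09 ± 0.15), the 1 called of 17 in its list. Of the 17, 8 were above 0, with a median of -0.15, against -0.09 over all genes. At the looser threshold 1 was higher and 1 was lower. The summed signal of this list overlapped between the nuclei, at 4030 to 4409 in VB and 3978 to 7338 in dLGN. None of 29 vascular and meningeal, 18 hypothalamic and tectal, 32 cell cycle or 5 red blood cell markers was called. Of the habenular markers Gng8 was higher (1.11 ± 0.20) and Irx3 lower, of the cortical ones Lmo4 was higher (0.83 ± 0.15), and of the choroid plexus ones Sostdc1 was lower (-0.87 ± 0.17). The part of these cells in the differences of other genes was not tested.

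Of the 123 genes named by rule and called, 74 kept their call without pair 24_4, 62 without pair 36_2 and 50 without pair 40_3. In each of the 3 reduced fits 48 were called, 27 of the leading genes and 21 others. The others were Tal1, Meis2, Pcdh17, Lrrtm4, Flrt2, Grin3a, Grik3, Glra3, Kcna1, Kcnh5, Kcnn1, Maob, Dusp6, Spock1, Gpc5, Syt9, Fosl2, Bdnf, Tpbg, Patj and Tgfbi. Every other one of the 123 lost its call without at least 1 pair.

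With the actin gap as a covariate 16 of the 123 kept their call and 118 their sign, and 42 fell under 0.5 of their size along that sign. The 5 that turned were Gabra4 (-0.06), Gabra3 (-0.26), Snap25 (-0.51), Hes1 (-0.05) and Aldoc (-0.02). Near 0 were the guidance ligand gene Sema3e (0.03), the potassium channel gene Kcnk2 (0.07), Slc6a4 (0.06), the matrix gene Vcan (0.10), Irx3 (-0.10) and the calcium channel subunit gene Cacna2d3 (0.13). Scn8a (0.18), Gabrg1 (0.17), Gal (0.15) and Pou2f2 (-0.23) were also small under the covariate. Of the leading genes Pdzrn3 was left at 0.43 and Fut8 at 0.78.

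Arrays of mice with eyes show which of these differences were present with retinal input as well. Between VB and dLGN of P4 controls 428 genes (2.35%) were called in the same fit. The sign in embBE arrays was the same for 426 of them, and 343 were also called there, 226 higher and 117 lower in VB. The shared calls were 44.8% of the embBE calls and 80.1% of the control calls. For the 428 genes the median size was 1.0 along the control sign in embBE mice, against 1.05 in controls. Of the 765 genes called in embBE mice, 762 had the same sign in controls, with a median of 0.75 in controls against 0.97 where they were chosen. Over all genes 82.3% had the same sign. Both sets share the estimate of each gene's spread, so these counts are a description.

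The control pairs were also read singly along the embBE sign of the 765 genes. In pair 24_2, the pair with close actin gaps, 743 had the same sign, with a median of 0.67, where 57.2% of all genes had it. In pair 36_3 (actin gaps of 3.14 in VB and 3.64 in dLGN) it was 723 genes, with a median of 0.55, where 48.3% of all genes had it. In pair 40_1, whose gaps of 2.30 and 4.13 lay as far apart as in the embBE pairs, it was 763 genes with a median of 0.99, where 88.6% of all genes had it. The 30 leading genes had the same sign in each of the 3 control pairs, and each was called in the controls. Pde1c differed by 3.54 in embBE mice and 3.21 in controls, Ppp1r17 by 3.37 and 3.71, Plxna2 by 2.63 and 3.02, Fgd5 by -2.35 and -2.07, Reln by -2.07 and -1.60, and Rorb by 1.72 and 1.59.

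**Figure D4:**
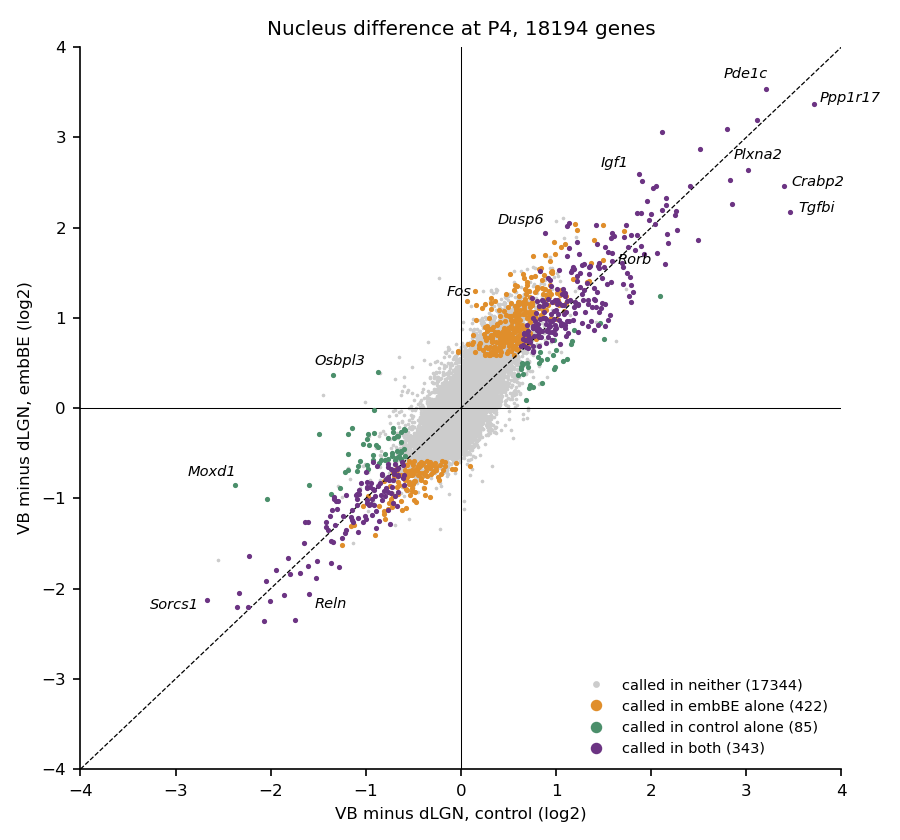
VB minus dLGN at P4 in embBE mice (y axis, log2) against the same difference in controls (x axis, log2), 1 point for each of 18194 genes; the dashed line marks equal differences. The 343 genes called in both lie along that line, and 422 genes were called in embBE mice alone and 85 in controls alone.

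Whether a nucleus difference depended on the eyes was tested by the embBE value minus the control value of the difference. No gene (0.0%) passed an adjusted p under 0.05 in limma, and the lowest adjusted p was 0.957. At an unadjusted p under 0.05 there were 305 genes, 1.68% of those tested, and 118 of them (0.649%) were also past 1.5-fold, 87 with a positive and 31 with a negative value. The median standard error of this value was 0.21. With the actin gap as a covariate 0 genes passed the adjusted p. At the looser threshold 500 then passed, 87 with a positive and 413 with a negative value, so the balance of directions depended on the covariate. Without the covariate, the count of 0 rested on control pair 40_1. When it was left out, 577 genes passed the adjusted p, 522 positive and 55 negative. The actin gaps of 40_1 were 2.30 in VB and 4.13 in dLGN, far apart as in the embBE pairs. Those of the control pairs left were closer, 1.95 and 2.21 in 24_2 and 3.14 and 3.64 in 36_3. So without 40_1 the embBE and control pairs also differed in this gap, and its part in the 577 genes was not tested. The labels of the P4 pairs share their first number between embBE and control mice (24, 36 and 40), and what the number marks is not said in the labels. With the nucleus differences paired by it, 0 genes passed the adjusted p, 382 passed an unadjusted p under 0.05, and the lowest adjusted p was 0.954. So the 422 genes called in embBE mice alone are not shown to differ from controls.

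The largest of these values are given as measurements that did not pass the adjusted test. Osbpl3, a lipid-binding protein, was at 6.86, 7.80 and 6.56 in embBE VB, against 6.73, 6.82 and 6.58 in embBE dLGN, and at 6.59, 6.17 and 6.29 in control VB, against 8.10, 7.81 and 7.17 in control dLGN. The nuclei overlapped without eyes and were apart with them, and the value was 1.70 ± 0.31 (unadjusted p = 0.000406). Moxd1, related to enzymes of catecholamine synthesis, differed between the nuclei by -0.85 in embBE mice and by -2.37 in controls (1.52 ± 0.37). Its dLGN level was 7.88, 7.93 and 7.58 in embBE mice, against 9.60, 8.89 and 8.96 in controls. Chst2, a sulfotransferase, differed by 0.39 in embBE mice and by -0.88 in controls (1.27 ± 0.24, unadjusted p = 0.000539). Dusp4, another phosphatase of the ERK pathway, had 1.21 ± 0.39 and the prostaglandin receptor gene Ptger4 1.21 ± 0.33. In each of these 5 genes the embBE dLGN mean was below the control dLGN mean. The choice of the genes favours this, since the value rises when the dLGN level is lower in embBE mice than in controls.

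On the negative side stood Tgfbi, a secreted adhesion protein. It was at 8.80, 8.97 and 8.93 in embBE VB, against 6.64, 7.21 and 6.32 in embBE dLGN, and at 9.11, 10.13 and 9.11 in control VB, against 6.07, 5.97 and 5.92 in control dLGN (-1.29 ± 0.33, unadjusted p = 0.00396). It was higher in VB in either condition. Tgm2 (-1.03 ± 0.32), Crabp2 (-0.93 ± 0.39), Nts (-0.89 ± 0.25) and Tac1 (-0.84 ± 0.32) followed. The activity-regulated gene Fos had a nucleus difference of 1.14 in embBE mice and of 0.15 in controls. Its levels in controls were 8.62, 8.12 and 8.76 in VB, against 8.67, 8.16 and 8.21 in dLGN, which overlap (0.98 ± 0.22, unadjusted p = 0.00149, adjusted p = 0.957). Dusp6 differed by 1.93 in embBE mice and by 0.89 in controls (1.05 ± 0.25), Kcnn1 by 1.10 and 0.31 (0.79 ± 0.17), and Gjd2 by 0.35 and -0.60 (0.94 ± 0.26). Fos, Dusp6 and Kcnn1 were set out here after these values were seen.

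**Figure D5:**
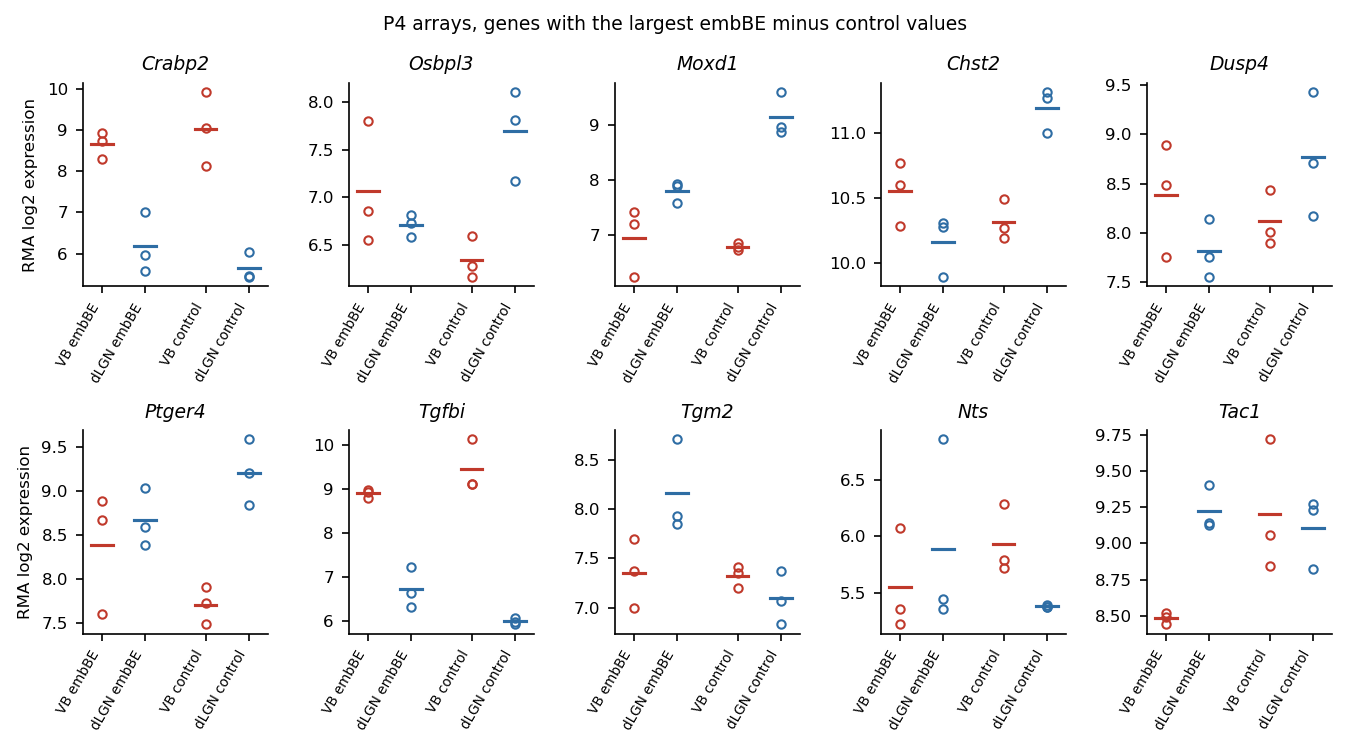
RMA log2 level (y axis) at P4 of the 5 genes with the largest positive and the 5 with the largest negative embBE minus control value of the nucleus difference, VB in red and dLGN in blue, embBE left of control, 1 point for each array and a bar for the mean. For Osbpl3 the control dLGN points (7.17 to 8.10) lie above the control VB points (6.17 to 6.59), while in embBE mice the nuclei overlap.

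The 7 embBE arrays of P0 show how many of the P4 differences were present at birth. The actin gap differed there as well, at 2.25 to 2.55 in VB and 3.06 to 4.27 in dLGN. Of the 765 genes called at P4, 731 had the same sign at P0 and 343 were also called (44.8%), where 5.0% of all genes were called at P0. The median P0 difference along the P4 sign was 0.65 for the genes higher in VB and 0.71 for the genes lower in VB. Of the 30 leading genes, all had the same sign and 25 were called. Plxna2 differed by 2.63 at P4 and 2.64 at P0, Spock1 by 2.04 and 2.0, Rorb by 1.72 and 1.77, and Fgd5 by -2.35 and -2.24.

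A change of the nucleus difference with age, tested as the P4 minus the P0 value in limma over the 24 arrays, was called for 10 genes (0.055%), 8 positive and 2 negative. At the looser threshold it was 326 genes (1.79%). Plekhd1 at P4 was at 7.18, 7.94 and 7.89 in VB, against 5.52, 5.39 and 5.13 in dLGN, while at P0 the nuclei overlapped, at 5.21 to 5.54 in VB and 4.80 to 5.49 in dLGN (change of 2.09 ± 0.30, adjusted p = 0.015). Kcna1 had differences of 1.77 at P4 and 0.27 at P0 (1.5 ± 0.23, adjusted p = 0.015). Aqp4, the water channel of astrocytes, had the largest change. At P4 it was at 10.55 to 11.16 in VB, against 10.01 to 11.14 in dLGN, and at P0 it was at 6.71 to 7.14 in VB, against 9.32 to 9.89 in dLGN (3.05 ± 0.51, adjusted p = 0.0285). Tpbg (1.64), Patj (1.39) and Kcnh5 (1.28) also gained a difference in favour of VB. Car3, a carbonic anhydrase, was at 6.69 to 7.36 in VB, against 5.96 to 6.94 in dLGN at P4, and at 8.03 to 8.50 in VB, against 4.85 to 5.45 in dLGN at P0 (-2.42 ± 0.38, adjusted p = 0.018). Pcp4, a regulator of calmodulin, had a difference of 0.29 at P4 and 1.01 at P0 (-0.72 ± 0.13, adjusted p = 0.0456). Without P0 VB array 35_3, or without P4 VB array 36_2, limma called 0 genes at the adjusted threshold, and 320 and 299 genes passed an unadjusted p under 0.05 with a fold of at least 1.5.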

How the data were processed

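Per the labels and the methods, the authors amplified RNA in 2 rounds, hybridized it to Affymetrix Mouse 430 2.0 arrays and deposited RMA-normalized log2 signals of 45101 probe sets; Partek and Matlab are named without versions. No count or depth exists for arrays, and their number limits the precision. Of the probe sets, 34958 had 1 gene symbol, 932 several and 9211 none listed; each of 18194 genes was read from its brightest probe set (mean of 24 arrays). The 12 P4 arrays were fitted in limma 3.58.1 (lmFit and eBayes, R 4.3.3) with the label as a fixed block, and p-values were adjusted by Benjamini-Hochberg. The P0 difference and the change with age used the 24 arrays with age and label as a random block. The fit was tested on simulated data that held no difference in the actin gap between the nuclei, so the test does not bear on that gap. Genes were named by rule: the 15 largest called differences of each sign, up to 6 called members of each list, 6 genes of the study and the 5 largest of each sign of both further contrasts. Members, lists and rules were chosen with earlier results of these data known. Alternatives covered the block, the arrays fitted, the probe set choice, dim genes, scaling, the test and single pairs; the actin covariate, the single arrays left out and the pairing of embBE with control labels were added after the data were seen.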

Additional observations from a re-analysis of the deposited data

Results flagged for a closer look

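The difference between the enucleated nuclei changed from P0 to P4, by a test of the change itself, in 10 genes. The P4 minus P0 value of the VB minus dLGN difference was 3.05 for Aqp4, 2.09 for Plekhd1, 1.64 for Tpbg, 1.5 for Kcna1, 1.39 for Patj, 1.28 for Kcnh5, 1.16 for Tiam1 and 1.03 for Fosl2. It was -2.42 for Car3 and -0.72 for Pcp4. Aqp4 and Car3 had other probe sets on the array, and with the mean of the probe sets their values were 1.89 and -0.76 and did not pass.

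In 4 named genes each embBE pair had the opposite sign to each control pair. The VB minus dLGN difference was 0.35 in embBE mice and -0.60 in controls for Gjd2, 0.39 and -0.88 for Chst2, 0.23 and -0.17 for Aqp4, and -0.34 and 0.55 for Nts. The test of the difference between embBE and control mice gave an adjusted p of 0.957 in limma for each of these genes, which does not pass.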

How the results depend on the processing

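The 765 adjusted calls became 2422 with the 6 embBE arrays alone, 1583 over every probe set and 70 with the actin gap as a covariate. Leaving out a pair gave 115 to 2420, and leaving out an embBE array without the block gave 439, 398 and 393 (VB of 24_4, 36_2 and 40_3) and 606, 420 and 322 (dLGN). The 2281 calls at the looser threshold became 1472 with the mean of the probe sets and 4637 over every probe set, 1295 to 3175 without a pair, and 1410 to 2941 without an embBE array and without the block. Genes past the adjusted interaction numbered 0, and 0 to 577 without a pair, the 577 being without control pair 40_1. The 10 changes with age became 6 with the mean of the probe sets and 0 to 9 without an array. Deviations from the group means correlated above 0.1 within 2 of 6 P4 labels (correlations of -0.15, 0.19 and 0.09 for the embBE pairs and of 0.72, -0.06 and -0.55 for the control pairs), while VB and dLGN agreed in sex-linked genes in each of 11 shared labels. Without the replicate block the adjusted calls numbered 858, of which 680 were shared, the looser calls 2191, the interaction 0 and the age change 10, and 12 named genes lost their call. With the actin gap as a covariate 8 named genes of the embBE comparison changed sign, Cck (-0.49), Slc17a6 (-1.06), Gjd2 (-0.61), Gabra4 (-0.0605), Gabra3 (-0.26), Snap25 (-0.51), Hes1 (-0.0533) and Aldoc (-0.0158); the cause was not tested. Over the named genes and alternatives 1714 values kept direction and side of the threshold, 507 lost a call and 12 gained one. The methods' t-test gave 2160 genes at the looser threshold and 684 after Benjamini-Hochberg adjustment.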
